A study of Rattus norvegicus with 30 samples.

Results

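The regulators described here are 10 genes of the WNK-SPAK and aldosterone pathways of the distal nephron, *Wnk1*, *Wnk4*, *Stk39*, *Oxsr1*, *Klhl3*, *Cul3*, *Sgk1*, *Nedd4l*, *Hsd11b2* and *Nr3c2*. They were chosen by gene symbol, with earlier results of these data known. Each symbol matched 1 of the 32545 genes counted. mRNAseq libraries were made from the renal cortex (Cx) and the outer medulla (OM) of male normal Sprague-Dawley (SD) rats. The LS group was kept on the 0.4% NaCl diet, and the HS14 and HS21 groups ate 4.0% NaCl for 14 and 21 d. Each of the 6 combinations of tissue and diet has 5 libraries, 30 in all. All rats were of the same strain, the labels name no transgene or drug, and the age of the rats sampled for RNA was not given in the sources used here. Library numbers run from 1 to 15 in both tissues, with LS from 1 to 5, HS14 from 6 to 10 and HS21 from 11 to 15, and according to the methods the 5 kidneys of each group were divided into both tissues, but no source says whether equal numbers mark the same kidney.

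WNK kinases sense chloride and potassium in tubular cells and phosphorylate the kinases SPAK, encoded by *Stk39*, and OSR1, encoded by *Oxsr1*, which in turn activate the sodium chloride cotransporter NCC of the distal convoluted tubule and NKCC2 of the thick ascending limb. WNK kinases are removed by a ubiquitin ligase in which KLHL3 binds the kinase and CUL3 is the scaffold, and loss of this ligase raises NCC activity and blood pressure in familial hyperkalemic hypertension. Aldosterone acts through the mineralocorticoid receptor, encoded by *Nr3c2*, in cells where the enzyme 11beta-HSD2, encoded by *Hsd11b2*, inactivates the glucocorticoids that would otherwise occupy the receptor. Among its target genes is the kinase *Sgk1*, which restrains the ubiquitin ligase NEDD4-2, encoded by *Nedd4l*, and so keeps the epithelial sodium channel ENaC at the cell surface. A high salt intake lowers plasma aldosterone.

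The libraries held 5408126 to 21842843 read pairs counted on genes. OM HS14 replicate 10 was the shallowest, and the next had 12748841. The methods supplement also lists this library with the smallest exonic share, the largest intronic share and the lowest mapping rate. All 10 genes had counts in every library, from 57 read pairs for *Klhl3* in OM HS21 replicate 13 to 29496 for *Wnk1*. Levels are given as CPM, which are counts scaled to a common library size, after TMM normalization, a method that equalizes libraries on the bulk of their genes, and per kilobase of annotated exon where genes are compared with each other. A gene is called raised or lowered where the *P* value of edgeR's quasi-likelihood test, adjusted over all genes tested in that comparison, is under 0.05. OM LS replicate 2 stood apart from its group, since its 4 distal convoluted tubule markers summed to 574.9 CPM against 70.31 to 112.2 in the other 4 libraries and its 13 proximal tubule markers to 18990 CPM against 892.9 to 7654. Cx HS14 replicate 10 stood apart in the Cx, with distal convoluted tubule markers of 3025 CPM against 1491 to 1778 and proximal tubule markers of 24600 CPM against 31100 to 33820.

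In the Ensembl annotation of Rnor_6.0 used by the authors, *Wnk1* lies at chr4:152452848-152578446, *Wnk4* at chr10:89181165-89198213, *Stk39* at chr3:54359451-54625414, *Oxsr1* at chr8:127920349-128009951 and *Klhl3* at chr17:6935860-7029240. *Cul3* lies at chr9:86044485-86103158, *Sgk1* at chr1:24185435-24302298, *Nedd4l* at chr18:60392376-60719720, *Hsd11b2* at chr19:37476083-37481326 and *Nr3c2* on the same chromosome at chr19:34448289-34752695. The exons counted add up to 10912 bases for *Wnk1*, the longest, and to 1401 bases for *Klhl3*, the shortest, so that levels per length also depend on how complete each annotation is. The spans of *Wnk1*, *Klhl3* and *Cul3* each overlap 1 other annotated gene and that of *Nr3c2* overlaps 2.

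RefSeq promoter entries of the build GRCr8 were found for 7 of the 10 genes, in 9 entries because *Sgk1* has 3 annotated starts. The 250 bases before the start are shown for the 4 genes among them that were raised together in the Cx at HS21 and for the most downstream start of *Sgk1*, which did not follow them. They are written 5′ to 3′, and capitals mark each match, on either strand, to a GC box (GGGCGG) or a TATA box (TATAAA).
*Wnk1*, chr4:154926148-154926397, minus strand: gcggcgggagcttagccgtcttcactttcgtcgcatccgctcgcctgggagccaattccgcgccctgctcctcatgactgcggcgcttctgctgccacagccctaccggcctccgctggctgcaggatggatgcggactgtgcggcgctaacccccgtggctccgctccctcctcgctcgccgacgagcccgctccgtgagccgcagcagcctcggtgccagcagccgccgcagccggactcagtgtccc
*Wnk4*, chr10:86702708-86702957, plus strand: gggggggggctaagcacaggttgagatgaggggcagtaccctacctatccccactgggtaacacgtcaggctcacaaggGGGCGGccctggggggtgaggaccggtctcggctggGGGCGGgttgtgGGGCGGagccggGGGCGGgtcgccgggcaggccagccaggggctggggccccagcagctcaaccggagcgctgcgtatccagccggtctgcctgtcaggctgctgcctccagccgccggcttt
*Stk39*, chr3:73586980-73587229, minus strand: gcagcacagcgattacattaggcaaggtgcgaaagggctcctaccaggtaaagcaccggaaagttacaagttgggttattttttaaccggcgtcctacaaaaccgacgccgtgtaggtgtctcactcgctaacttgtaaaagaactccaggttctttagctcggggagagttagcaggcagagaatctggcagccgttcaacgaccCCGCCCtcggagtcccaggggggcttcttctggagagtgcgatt
*Klhl3*, chr17:6528237-6528486, plus strand: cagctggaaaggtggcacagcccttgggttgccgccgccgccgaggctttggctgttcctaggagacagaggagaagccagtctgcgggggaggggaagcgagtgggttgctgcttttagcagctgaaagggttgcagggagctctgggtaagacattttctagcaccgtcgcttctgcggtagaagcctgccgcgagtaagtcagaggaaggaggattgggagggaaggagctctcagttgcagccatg
*Sgk1*, chr1:24804832-24805081, minus strand: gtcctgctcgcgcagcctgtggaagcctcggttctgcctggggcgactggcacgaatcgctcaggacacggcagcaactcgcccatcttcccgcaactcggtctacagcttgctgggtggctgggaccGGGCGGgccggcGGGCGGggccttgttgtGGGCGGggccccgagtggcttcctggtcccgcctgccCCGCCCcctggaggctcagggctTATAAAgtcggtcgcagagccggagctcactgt
The letters GGGCGG or their reverse complement were found in 5 of the 9 entries and in 30.5% of all 33469 rat promoters of this length. TATAAA was found in 2 of the 9, both of *Sgk1*, and in 12.9% of all. The half-site letters of the corticosteroid receptors (AGAACA) stood in 0 of the 9 and in 17.5% of all, and those of an E-box (CACGTG) in 0 of the 9 and in 5.59% of all. The 4 genes raised together shared no motif among those searched, since the windows of *Wnk1* and *Klhl3* held no match at all. No match means only that these letters are not within this window.

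On the LS diet the 10 genes spanned a wide range of levels. In the Cx *Hsd11b2* had the highest level per length, 173 ± 20.6 CPM per kilobase (SD, n = 5), followed by *Wnk1* with 73.0 ± 8.69 and *Sgk1* with 50.6 ± 9.97. *Cul3*, *Nedd4l* and *Oxsr1*, which are expressed in most cell types, came next at 26.9 ± 1.86, 22.7 ± 1.501 and 20.5 ± 0.657 CPM per kilobase. *Klhl3* followed at 16.4 ± 1.0003, *Stk39* at 12.5 ± 0.963, *Wnk4* at 7.48 ± 0.638 and *Nr3c2* at 5.87 ± 0.579 CPM per kilobase. Neighbours in this order did not overlap in their 5 libraries, except that the lowest *Wnk4* library, at 6.55, lay below the highest *Nr3c2* library, at 6.59 CPM per kilobase. In the OM *Hsd11b2* was again the highest at 157 ± 62.8 CPM per kilobase, *Wnk1* was 6th at 21.8 ± 11.4, and *Klhl3* was the lowest at 5.93 ± 1.86. Between them *Sgk1* at 31.9 ± 12.5, *Nedd4l* at 29.0 ± 3.19, *Stk39* at 26.0 ± 9.05 and *Cul3* at 25.1 ± 1.73 CPM per kilobase overlapped with each other, and *Oxsr1* at 18.8 ± 1.03, *Nr3c2* at 10.2 ± 2.91 and *Wnk4* at 6.75 ± 2.66 followed. The count of *Wnk1* pools its long isoform with the kidney-specific form that lacks most of the kinase domain, and gene counts cannot separate them.

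**Figure D1:**
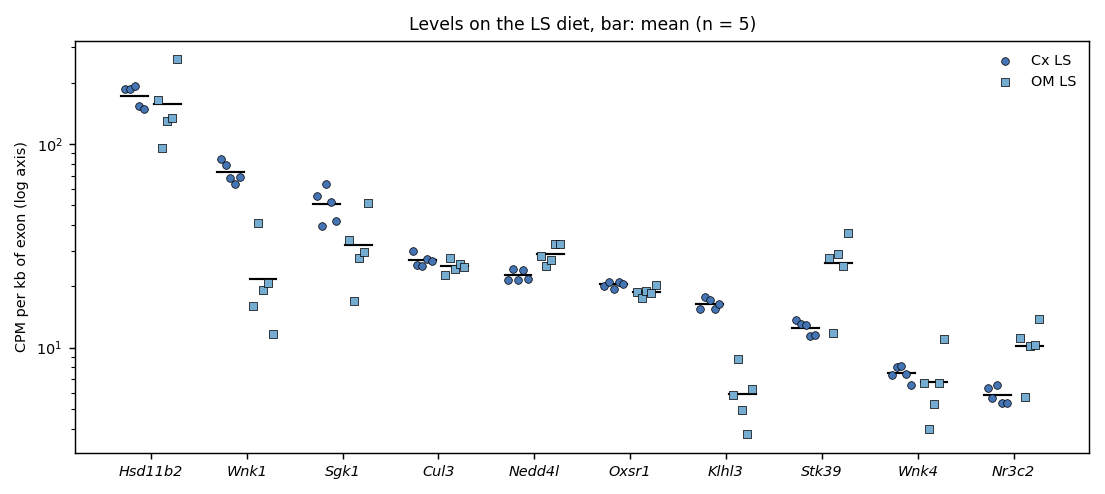
Levels of the 10 genes on the LS diet as CPM per kilobase of exon on a log axis, with each Cx LS library as a circle, each OM LS library as a square and the mean as a bar. *Wnk1* and *Klhl3* lie lower in every OM library than in any Cx library, while for *Stk39* and *Nr3c2* only 1 OM library, replicate 2, lies among the Cx libraries.

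Of the 10 genes 5 differed between the tissues on the LS diet, not far from the 40.9% of all genes tested that were called. In OM LS compared with Cx LS, 3 of the 10 genes were raised and 2 lowered, where 21.3% of the 14295 genes tested were raised and 19.5% lowered. The 5 libraries of each tissue did not overlap for 3 of the 10 genes, against 29% of all genes tested. *Wnk1* held 927, 861, 743, 698 and 752 CPM in the Cx LS libraries 1 to 5, and 175, 448, 211, 226 and 127 CPM in the OM LS libraries of the same numbers. Every OM library was below every Cx library, with OM replicate 2 the nearest, and the log2 ratio of OM over Cx was -1.75 ± 0.301 (SE; adjusted *P* = 0.00109). *Klhl3*, the substrate adaptor of the ligase, held 21.6 to 24.8 CPM in the Cx and 8.24, 12.3, 6.94, 5.28 and 8.74 CPM in the OM. The groups did not overlap either, and the log2 ratio was -1.48 ± 0.191 (adjusted *P* = 0.000189).

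*Stk39*, the gene of SPAK, had the opposite order. It held 52.1, 49.8, 49.3, 43.9 and 44.0 CPM in the Cx LS libraries and 106, 45.4, 110, 95.9 and 141 CPM in the OM LS libraries, a log2 ratio of 1.05 ± 0.233 (adjusted *P* = 0.00489). OM replicate 2, the library with the cortical markers, was the only OM library within the Cx range. Without it the log2 ratio was 1.22, and that of *Wnk1* was -2.13. The receptor gene *Nr3c2* showed the same order, with 14.1 to 17.3 CPM in the Cx and 29.2, 15.05, 26.9, 27.1 and 36.3 CPM in the OM (log2 ratio 0.79 ± 0.190, adjusted *P* = 0.00720), and again only replicate 2 fell within the Cx range. *Nedd4l* was raised in the OM by a log2 ratio of 0.35 ± 0.0853 (adjusted *P* = 0.00845), with all OM libraries at 109 to 139 CPM above all Cx libraries at 92.4 to 105 CPM.

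For the other 5 genes no difference between the tissues passed edgeR's test, while DESeq2 called 7 of the 10, adding *Sgk1* (log2 ratio -0.69, adjusted *P* = 0.0279) and *Oxsr1* (log2 ratio -0.14, adjusted *P* = 0.0251). *Sgk1* had 144 to 233 CPM in the Cx and 61.9 to 188 CPM in the OM (log2 ratio -0.67 ± 0.252, adjusted *P* = 0.0540). It was called lower in the OM without OM LS replicate 2 (log2 ratio -0.53, adjusted *P* = 0.0473) or replicate 5 (log2 ratio -0.91, adjusted *P* = 0.00577), and with a replicate block that pairs equal numbers (log2 ratio -0.74, adjusted *P* = 0.0460). *Oxsr1*, at a log2 ratio of -0.13 ± 0.0564 (adjusted *P* = 0.0884), was called lower without OM LS replicate 5 (log2 ratio -0.16, adjusted *P* = 0.0426). *Hsd11b2*, *Wnk4* and *Cul3* had log2 ratios of -0.15, -0.16 and -0.11, with adjusted *P* values of 0.629, 0.602 and 0.277. Scaling by total counts moved the median of all genes from 0.03 to 0.27 on the log2 scale and turned the sign of these 3 and of *Oxsr1*, while the 5 called genes kept their direction. Of all genes 5546 were then raised and 1842 lowered, in place of 3051 and 2794. The sodium chloride cotransporter *Slc12a3*, the target of SPAK in the distal convoluted tubule, had 979 to 1191 CPM in the Cx LS libraries and 8.61 to 20.4 CPM in 4 OM LS libraries, with 354 CPM in OM LS replicate 2. *Slc12a1*, which encodes the SPAK target NKCC2 of the thick ascending limb, was higher in the OM by a log2 ratio of 3.96 ± 0.280 (adjusted *P* = 4.97e-06).

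In the Cx after 21 d of the HS diet, 6 of the 10 genes were raised and 1 was lowered relative to LS, where 18.9% of the 14299 genes tested were raised and 20.5% lowered. The genes raised were *Wnk1*, *Wnk4*, *Stk39*, *Klhl3*, *Hsd11b2* and *Nr3c2*, by log2 ratios of 0.53 to 0.80, and the one lowered was *Cul3*. The 5 HS21 libraries did not overlap with the 5 LS libraries for those 6 genes, against 26.7% of all genes tested. With total-count scaling the same 6 genes and *Oxsr1* were raised and none was lowered, where 4401 genes were raised and 1653 lowered in place of 2702 and 2936. The median log2 ratio of the 10 genes was 0.61, and that of all genes tested was 0.0046. Since the 10 genes were chosen with earlier results of these data known, these shares and medians describe them and are no independent test. In bulk tissue a larger number of cells of a type and more RNA of a gene per cell cannot be told apart.

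**Figure D2:**
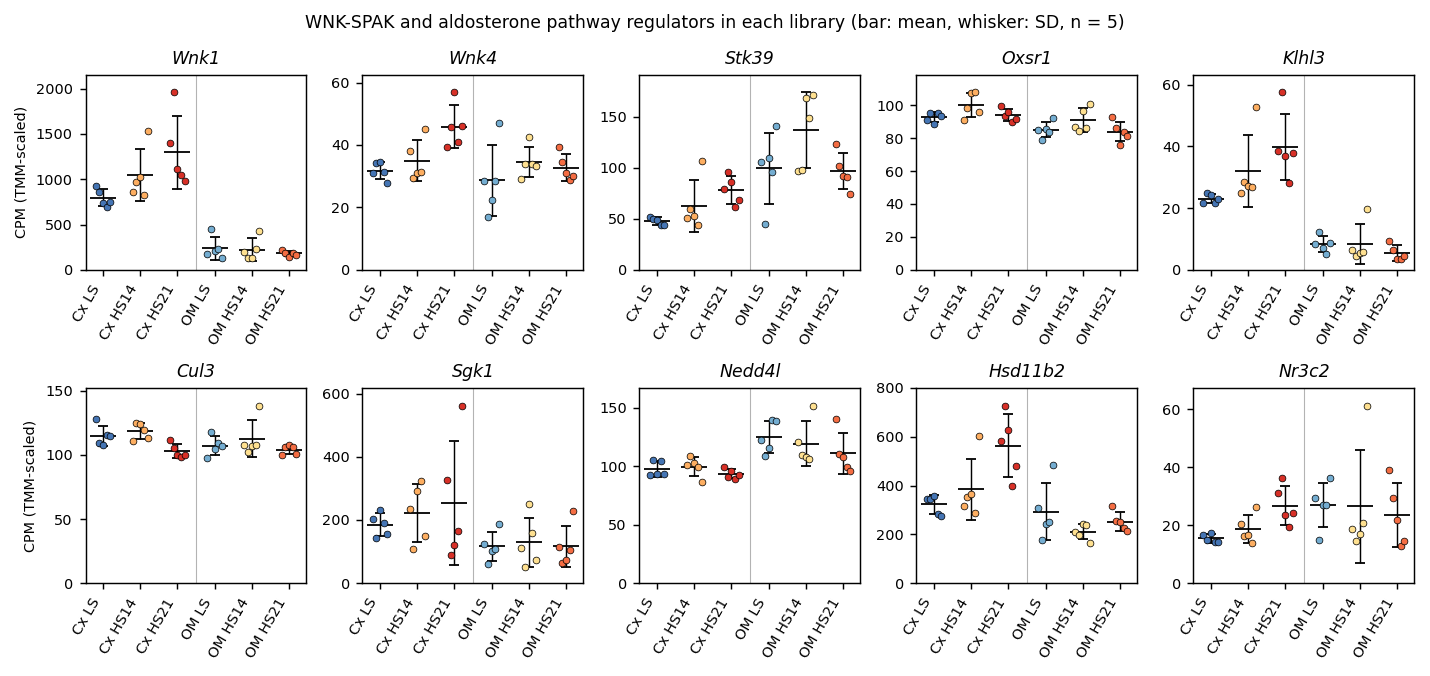
CPM of each gene in every library, by tissue and diet, with the mean as a bar and the SD as a whisker (n = 5 per group). In Cx HS21 all libraries of *Wnk1*, *Wnk4*, *Stk39*, *Klhl3*, *Hsd11b2* and *Nr3c2* lie above all Cx LS libraries, Cx HS14 replicate 10 lies at the level of the HS21 libraries for these genes, and *Sgk1* spreads from 90.5 to 562 CPM within Cx HS21.

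Both WNK kinases rose. *Wnk1*, at 698 to 927 CPM in Cx LS, held 1401, 1959, 1108, 1047 and 977 CPM in the Cx HS21 libraries 11 to 15. The lowest HS21 library exceeded the highest LS library by little and replicate 12 was far above the rest, and the log2 ratio was 0.70 ± 0.175 (SE; adjusted *P* = 0.00791). *Wnk4*, the WNK kinase that dominates control of NCC, held 31.0, 34.2, 34.5, 31.5 and 27.8 CPM in Cx LS and 39.3, 45.9, 56.9, 41.0 and 46.2 CPM in Cx HS21. Its HS21 libraries all lay above its LS libraries, with a log2 ratio of 0.53 ± 0.102 (adjusted *P* = 0.00189). The span of *Wnk4* overlaps those of 2 other annotated genes, and since the libraries were not strand-specific its reads cannot be fully told apart from theirs.

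The kinases downstream of WNK parted. *Stk39* held 43.9 to 52.1 CPM in Cx LS and 79.3, 96.2, 85.9, 61.8 and 68.6 CPM in Cx HS21, and its log2 ratio of 0.71 ± 0.111 had the smallest adjusted *P* of the 10 genes, 0.000528. *Oxsr1*, whose product shares the substrates of SPAK, held 91.1, 95.1, 88.3, 95.5 and 93.5 CPM in Cx LS and 99.7, 93.4, 95.7, 90.0 and 91.6 CPM in Cx HS21. The groups overlapped, and the log2 ratio was 0.02 with a 95% confidence interval from -0.08 to 0.12 (adjusted *P* = 0.769). Scaled by total counts, which moved the median of all genes to 0.13 in this comparison, *Oxsr1* was called raised at a log2 ratio of 0.15 (adjusted *P* = 0.0203). The within-library difference between *Stk39* and *Oxsr1*, which does not depend on scaling, rose from -1.12 to -0.81 in the LS libraries to -0.54 to 0.04 in the HS21 libraries on the log2 CPM scale, and these ranges did not overlap.

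The 2 subunits of the WNK-degrading ligase moved apart as well. *Klhl3* held 21.8, 24.8, 24.1, 21.6 and 22.9 CPM in Cx LS and 38.7, 57.5, 36.8, 28.0 and 37.9 CPM in Cx HS21, a log2 ratio of 0.79 ± 0.155 (adjusted *P* = 0.00210). *Cul3* held 128, 109, 108, 116 and 114 CPM in Cx LS and 111, 105, 99.6, 98.5 and 99.8 CPM in Cx HS21, a log2 ratio of -0.16 ± 0.0582 (adjusted *P* = 0.0450). Unlike *Klhl3*, *Cul3* overlapped between the groups through the HS21 replicate 11. The call of *Cul3* was lost with total-count scaling (log2 ratio -0.03, adjusted *P* = 0.694), with DESeq2 size factors (adjusted *P* = 0.0577) and without the low-count filter (adjusted *P* = 0.0591), and also without any one of Cx LS replicates 1, 4 and 5 or Cx HS21 replicates 12, 13, 14 and 15 (log2 ratios of -0.17 to -0.12, adjusted *P* of 0.0711 to 0.124). In each library the log2 CPM of *Klhl3* lay below that of *Cul3*, by 2.13 to 2.54 in LS and by 0.87 to 1.81 in HS21.

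The mineralocorticoid receptor and the enzyme that guards it rose together. *Nr3c2* held 16.7, 14.9, 17.3, 14.1 and 14.1 CPM in Cx LS and 31.0, 36.3, 23.4, 19.3 and 24.1 CPM in Cx HS21, a log2 ratio of 0.79 ± 0.156 (adjusted *P* = 0.00205). *Hsd11b2* held 347, 346, 358, 285 and 276 CPM in Cx LS and 584, 728, 627, 397 and 480 CPM in Cx HS21, the largest log2 ratio of the 10 genes at 0.80 ± 0.147 (adjusted *P* = 0.00142). For both genes the HS21 libraries 11 and 12 were among the 3 highest, and replicate 14 was the lowest HS21 library while still above the whole LS group. The difference between the 2 genes within a library stayed in the same range, 4.28 to 4.53 in LS and 4.23 to 4.74 in HS21 on the log2 CPM scale. The glucocorticoid receptor gene *Nr3c1* had a log2 ratio of -0.13 ± 0.0624 (adjusted *P* = 0.131), and *Hsd11b1*, whose product regenerates glucocorticoids, one of 0.17 ± 0.0825 (adjusted *P* = 0.134).

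*Sgk1*, the kinase gene induced by aldosterone and glucocorticoids, and *Nedd4l*, the ligase gene that it restrains, did not pass the test. *Sgk1* held 204, 144, 233, 189 and 154 CPM in Cx LS and 327, 90.5, 120, 165 and 562 CPM in Cx HS21. The HS21 libraries lay on both sides of the LS group, 2 above all of it and 2 below, and the log2 ratio was 0.45 ± 0.421 (adjusted *P* = 0.422). Without Cx HS21 replicate 15 it was -0.06 (adjusted *P* = 0.901). The coefficient of variation of *Sgk1* was 19.7% in Cx LS, 41.2% in Cx HS14 and 77.2% in Cx HS21, the largest of the 10 genes in each of these groups. *Nedd4l* held 92.4 to 105 CPM in Cx LS and 89.0 to 99.1 CPM in Cx HS21, and its log2 ratio was -0.06 with a 95% confidence interval from -0.18 to 0.06 (adjusted *P* = 0.393).

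**Figure D3:**
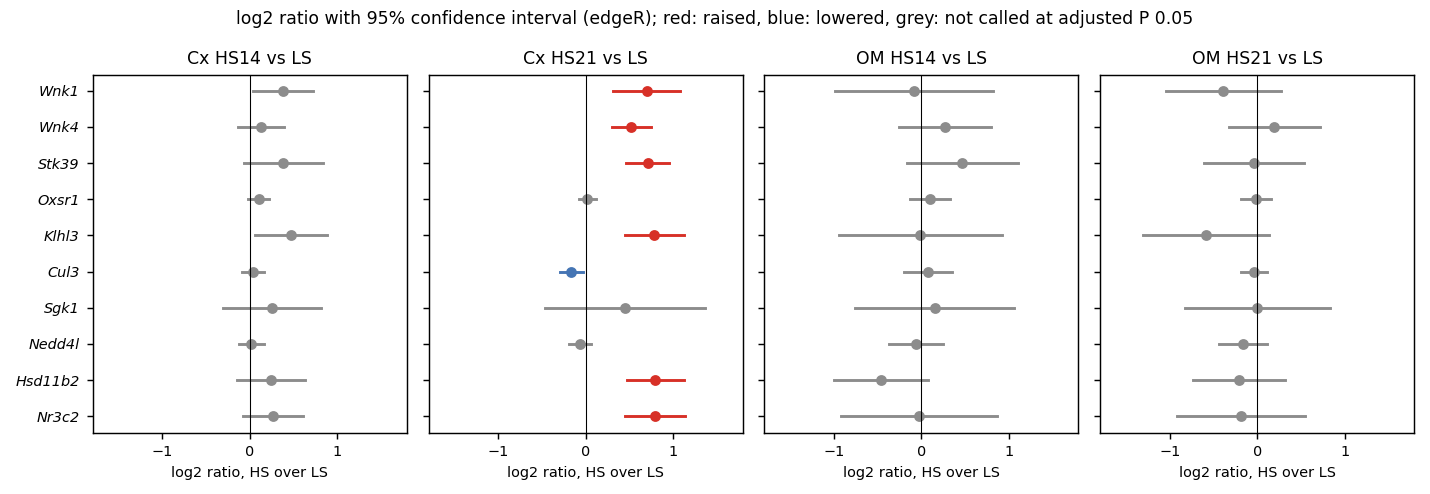
log2 ratios of HS over LS with 95% confidence intervals from edgeR for the 10 genes in the 4 comparisons with LS, in red where raised, blue where lowered and grey where not called. Calls appear only in Cx HS21, where 6 genes have intervals above 0 and *Cul3* one below, and the intervals in the OM are wider than those in the Cx.

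The 6 raised genes varied together across the Cx libraries. Over the 15 Cx libraries of the 3 diets, the 15 pairs of these genes had Pearson correlations of log2 CPM from 0.617, between *Wnk1* and *Wnk4*, to 0.965, between *Stk39* and *Hsd11b2*. These values describe libraries that share diet, depth and tissue composition. The 6 genes were also chosen for a difference between Cx LS and Cx HS21, whose libraries are among the 15. High correlations within the set and lower ones with the other genes follow in part from that choice. With the genes that were not raised the same 6 correlated between -0.773, for *Wnk4* with *Cul3*, and 0.081, for *Wnk1* with *Oxsr1*. The protein-coding genes most like *Stk39* over these libraries were *Tmprss2* and *Sdpr*, both at 0.972, and those most like *Hsd11b2* were *Tmprss2* at 0.979 and *Inpp5j* at 0.967, of 13406 ranked. *Klhl3* was most like *Tmem52b*, a distal convoluted tubule marker, at 0.975, and *Epb41l4b* at 0.970. *Nr3c2* was most like *Atp8b1* at 0.967 and *Tanc1* at 0.963, *Wnk1* most like *Ildr1* at 0.963 and LOC102546892 at 0.959, and *Wnk4* most like *Kcnt1* at 0.968 and *Prpf40b* at 0.958. Of the genes that were not raised, *Oxsr1* was closest to *Dnah9* at 0.835 and *Txndc16* at 0.825, and *Nedd4l* to *Foxk1* at 0.852 and *Dyrk1a* at 0.838. *Cul3* had a correlation of 0.899 with RGD1562161.

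Most markers of distal convoluted tubule, principal and intercalated cells were raised as well in Cx HS21. In Cx HS21, 3 of 4 tested distal convoluted tubule markers, 6 of 7 principal cell markers and 6 of 6 intercalated cell markers were raised, with median log2 ratios of 0.77, 0.80 and 0.71, while 13 of 13 proximal tubule markers were lowered with a median of -0.82. Summed over its list, the level of distal convoluted tubule markers was 1353 to 1620 CPM in LS and 1899 to 3643 CPM in HS21, that of principal cell markers 382.6 to 470.5 and 535.1 to 957.0 CPM, and that of intercalated cell markers 843.9 to 1058 and 1172 to 1957 CPM. These 3 sums did not overlap between LS and HS21. Proximal tubule markers fell from 33090 to 37870 CPM to 19220 to 23250 CPM. Markers of the thick ascending limb were raised for 2 of 6, with sums of 1580 to 2169 CPM in LS and 2406 to 3207 CPM in HS21, and leukocyte markers for 11 of 11 tested, with sums of 1027 to 1195 and 1455 to 5858 CPM. Of the endothelial markers 3 of 7 were raised, of the fibroblast and pericyte markers 1 of 6 and of the podocyte markers 4 of 5. In Cx HS14 the distal convoluted tubule, principal cell and intercalated cell markers had median log2 ratios of 0.41, 0.52 and 0.33. There 1 of 4, 1 of 7 and 0 of 6 of them were raised, while 0 of the 10 genes were called, with a median of 0.25.

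Each gene was read against the mean log2 CPM of the 17 distal convoluted tubule, principal cell and intercalated cell markers of the same library. This measure was added after the data were seen. The markers include *Slc12a3*, *Scnn1b* and *Scnn1g*, which are also transport targets of these pathways. The measure therefore cannot tell a shared rise of regulators and targets per cell from a larger number of distal cells. The marker mean was 6.33 to 6.41 in Cx LS and 6.76 to 7.41 in Cx HS21. Relative to it, the mean difference between HS21 and LS of the 6 raised genes was -0.15 to 0.12 on the log2 scale, and for each of the 6 the HS21 libraries overlapped with the LS libraries. *Stk39*, for example, lay 0.63 to 0.88 below the marker mean in LS and 0.64 to 0.82 below it in HS21. *Oxsr1*, *Cul3* and *Nedd4l* were lower relative to the same markers in HS21, by mean differences of -0.64, -0.82 and -0.72, and their HS21 libraries lay below all LS libraries. The part of the cell makeup in the rises was not tested.

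**Figure D4:**
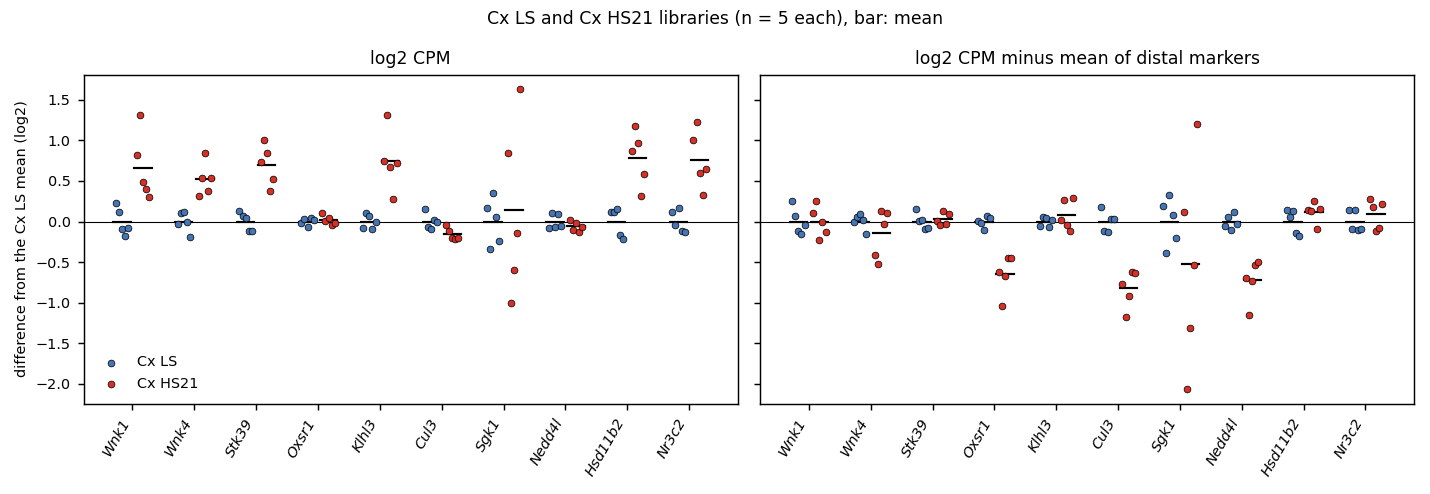
Cx LS (blue) and Cx HS21 (red) libraries for the 10 genes, as the difference from the Cx LS mean on the log2 scale, for log2 CPM on the left and for log2 CPM minus the mean of the 17 distal nephron markers on the right, with group means as bars. On the left 6 genes lie above the LS libraries, and on the right those 6 overlap with LS while *Oxsr1*, *Cul3* and *Nedd4l* lie below it. The marker mean was itself higher in HS21, so a gene of unchanged level lies below LS on the right.

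Other genes of the WNK-SPAK pathway did not move one way in Cx HS21. Of 14 tested, 3 were raised, 6 lowered and 5 not called, with a median log2 ratio of -0.05. *Kcnj10*, the basolateral potassium channel by which plasma potassium reaches WNK signaling, was raised by 0.53 ± 0.113 (adjusted *P* = 0.00319). *Ppp1r1a*, an inhibitor of protein phosphatase 1 that is abundant in the distal convoluted tubule, had a log2 ratio of 0.59 ± 0.131 (adjusted *P* = 0.00403). *Cand1*, the exchange factor of cullin ligases, fell by 0.41 on the log2 scale (adjusted *P* = 0.000431), as did *Ppp3r1*, the regulatory subunit of calcineurin, by 0.22 (adjusted *P* = 0.00298).

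The transport targets of the pathways were counted as cotransporters and as channels and pumps. Of the 6 cation-chloride cotransporters 2 were raised, 1 was lowered and 3 were not called. Those raised were *Slc12a3* by 0.83 ± 0.151 (adjusted *P* = 0.00132) and *Slc12a1* by 0.55 ± 0.102 (adjusted *P* = 0.00145). Of the 8 channel and pump genes 5 were raised and 1 lowered, with a median of 0.73. The 3 ENaC subunits were among those raised, *Scnn1a* by 0.82 ± 0.0680 (adjusted *P* = 1.56e-05), *Scnn1b* by 0.98 ± 0.133 (adjusted *P* = 0.000223) and *Scnn1g* by 0.94 ± 0.136 (adjusted *P* = 0.000341). *Kcnj1*, the secretory potassium channel ROMK, was raised by 0.83 ± 0.144 (adjusted *P* = 0.000998). *Atp1b1*, the beta subunit of the Na-K-ATPase and among the most abundant of this list, had a log2 ratio of 0.16 (adjusted *P* = 0.143). *Scnn1b* and *Scnn1g* are also counted among the principal cell markers, and *Slc12a3* among those of the distal convoluted tubule.

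Other aldosterone pathway genes changed in both directions. Of 20 tested, 3 were raised, 7 lowered and 10 not called, with a median log2 ratio of -0.09 against 0.0046 over all genes, of which 18.9% were raised and 20.5% lowered. *Nedd4*, the ligase related to *Nedd4l*, fell by 0.34 (adjusted *P* = 0.000156), *Sgk2*, a relative of *Sgk1* found mainly in the proximal tubule, by 0.78 (adjusted *P* = 0.000654), *Pdpk1*, which activates SGK1, by 0.47 (adjusted *P* = 0.000780) and *Mtor*, the kinase of the complex that also activates SGK1, by 0.27 (adjusted *P* = 0.00397) on the log2 scale. *Tsc22d3*, the corticosteroid-induced gene GILZ, was raised by 1.42 ± 0.347 (adjusted *P* = 0.00729) and *Fkbp5*, a cochaperone of steroid receptors induced by glucocorticoids, by 0.95 ± 0.301 (adjusted *P* = 0.0257). *Per1*, the clock gene that aldosterone and glucocorticoids induce, had a log2 ratio of 0.94 ± 0.377 (adjusted *P* = 0.0674). Of the 12 corticosteroid-induced genes 5 were raised and 1 lowered, with a median of 0.70. Besides *Tsc22d3* and *Fkbp5* they included *Cebpd* at 1.46 ± 0.415 (adjusted *P* = 0.0155) and *Zbtb16*, while *Klf9* fell by 0.57 (adjusted *P* = 0.00128). Of 10 immediate early genes tested, which mark recent stimulation of cells, 1 was lowered and 9 were not called, with a median of -0.09. The one lowered was *Jun*, at a log2 ratio of -0.45 ± 0.145 (adjusted *P* = 0.0270), and *Egr1* had one of -0.60 ± 0.274 (adjusted *P* = 0.102). Of 6 tonicity-responsive genes, *Akr1b1*, which makes sorbitol, was raised by 0.62 ± 0.102 (adjusted *P* = 0.000702) and the betaine transporter *Slc6a12* by 1.38 ± 0.270 (adjusted *P* = 0.00201), while the taurine transporter *Slc6a6* fell by 0.41 (adjusted *P* = 0.00276).

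*Sgk1* varied across libraries with some corticosteroid-induced and some immediate early genes. Over the 15 Cx libraries its Pearson correlation of log2 CPM was highest with *Fosl2*, at 0.881, and *Tob2*, at 0.866, and *Per1*, at 0.845, ranked 3rd of 13406 protein-coding genes. *Dusp1* at 0.822 and *Ddit4* at 0.791 ranked 6th and 10th, and the immediate early genes *Zfp36* at 0.791 and *Btg2* at 0.787 ranked 11th and 13th. The corticosteroid-induced genes *Errfi1* at 0.769 and *Cebpd* at 0.765 ranked 14th and 15th. Others of that list were less alike, with 0.499 for *Fkbp5*, 0.312 for *Klf9*, 0.229 for *Zbtb16* and 0.181 for *Pdk4*, and *Tsc22d3* was not ranked. The immediate early genes also differed, down to 0.37 for *Junb*, 0.33 for *Fos* and 0.268 for *Fosb*. Over the 15 OM libraries *Per1* ranked 2nd at 0.896, after *Zfp36* at 0.903, and *Btg2* ranked 7th at 0.85. With the other 9 genes *Sgk1* correlated between -0.292 for *Wnk1* and 0.186 for *Oxsr1* in the Cx. *Per1* held 221.9 CPM in Cx HS21 replicate 15 and 44.4 CPM in replicate 12, the libraries with the highest and the lowest *Sgk1* of that group, and 24.4 CPM in Cx HS14 replicate 7, where *Sgk1* was the lowest of its group at 109 CPM. According to the study, its samples were taken at a fixed time of day from rats that had not been fasted.

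**Figure D5:**
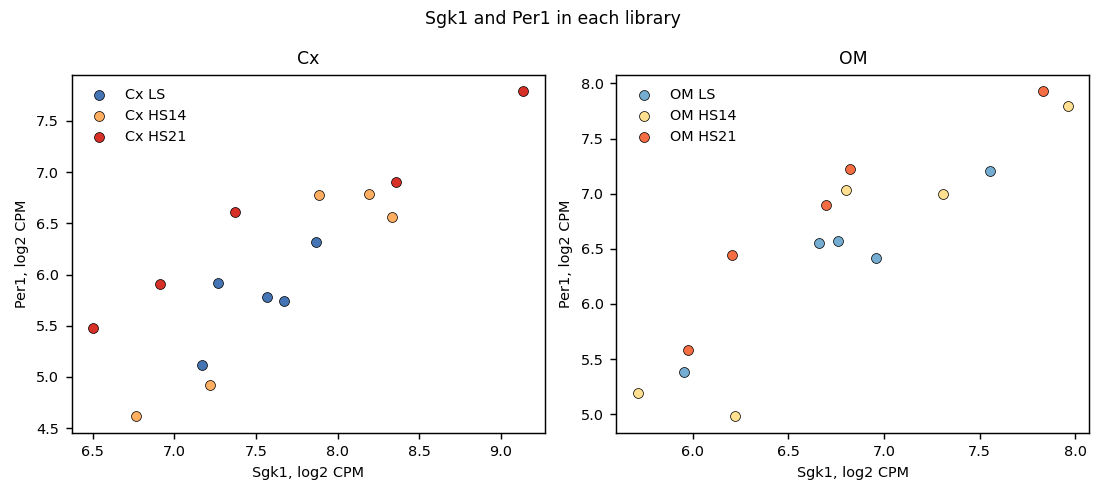
log2 CPM of *Per1* (vertical axis) against log2 CPM of *Sgk1* (horizontal axis) in each library, for the Cx on the left and the OM on the right, colored by diet. In both tissues the libraries of all 3 diets lie along 1 rising band, with HS21 replicate 15 at or near its upper end.

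After 14 d of the HS diet none of the 10 genes was called in the Cx by edgeR, and 2 had an unadjusted *P* under 0.05. DESeq2 also called 0 of the 10, and edgeR called 2.33% of the 14181 genes tested. That is 330 genes, or 85 to 471 with each library left out. All 10 log2 ratios were above 0, from 0.02 for *Nedd4l* to 0.47 for *Klhl3*, with a median of 0.25. For the 6 genes raised at HS21 the ratios depended on Cx HS14 replicate 10. *Klhl3* held 25.0, 28.5, 27.0, 26.9 and 52.8 CPM in libraries 6 to 10, *Stk39* 50.6, 59.6, 53.1, 43.7 and 106 CPM, and *Hsd11b2* 316, 352, 365, 288 and 602 CPM. Replicate 10 was the highest for all 3, and also for *Wnk1* at 1536 CPM, *Wnk4* at 45.2 CPM and *Nr3c2* at 26.4 CPM, which are the genes raised at HS21. Without it the log2 ratio was 0.21 for *Klhl3*, 0.10 for *Stk39*, 0.02 for *Hsd11b2*, 0.20 for *Wnk1*, 0.02 for *Wnk4* and 0.11 for *Nr3c2*. For the other 4 genes it was higher without that library, at 0.11 for *Oxsr1*, 0.05 for *Cul3*, 0.36 for *Sgk1* and 0.06 for *Nedd4l*. *Klhl3* was the gene nearest to separation, since its lowest HS14 library, at 25.0 CPM, lay just above its highest LS library, at 24.8 CPM, in the scaling of the 30 libraries together but not in that of the 10 compared.

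From HS14 to HS21 in the Cx only *Cul3* was called, lowered by a log2 ratio of -0.20 ± 0.0552 (adjusted *P* = 0.0333), where 16.2% of the 14395 genes tested were called, 935 raised and 1395 lowered, or 2084 raised and 644 lowered with total-count scaling. Its HS14 libraries held 111, 125, 124, 120 and 113 CPM, against 98.5 to 111 CPM at HS21. The call was lost without any one of Cx HS14 replicates 7, 8 and 9 or Cx HS21 replicates 12, 13, 14 and 15 (adjusted *P* of 0.0503 to 0.0878), and also without the low-count filter (adjusted *P* = 0.0763). With total-count scaling *Cul3* was not called (log2 ratio -0.08, adjusted *P* = 0.295), and *Wnk4* was called raised in its place (log2 ratio 0.50, adjusted *P* = 0.0336). Without Cx HS14 replicate 10, where the number of all genes called rose from 2330 to 3524, 6 of the 10 genes were called, *Cul3* and 5 raised ones, namely *Hsd11b2* (log2 ratio 0.77, adjusted *P* = 0.00830), *Stk39* (0.60, 0.0114), *Wnk4* (0.50, 0.0140), *Nr3c2* (0.67, 0.0248) and *Klhl3* (0.56, 0.0361). With all 10 libraries *Hsd11b2* had a log2 ratio of 0.55 ± 0.213 and *Nr3c2* one of 0.52 ± 0.201, both with an adjusted *P* of 0.0953.

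In the OM no change with the HS diet passed the test for any of the 10 genes. At HS14 edgeR called 0 of them and 0.00694% of the 14417 genes tested, DESeq2 called 0 of the 10, and 0 had an unadjusted *P* under 0.05. At HS21 edgeR called 0 and DESeq2 0, 0 had an unadjusted *P* under 0.05, and edgeR called 0.769% of the 14555 genes tested, 112 genes, or 9 to 175 with each library left out. Between HS14 and HS21 edgeR called 0 of the 10 and 0% of the 14499 genes tested, DESeq2 0, and 1 had an unadjusted *P* under 0.05, *Stk39* at a log2 ratio of -0.51 ± 0.209 (adjusted *P* = 0.961). The log2 ratios at HS14 ran from -0.46 for *Hsd11b2* to 0.47 for *Stk39*, and those at HS21 from -0.59 for *Klhl3* to 0.19 for *Wnk4*.

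The spread between OM libraries was wide for these genes. *Hsd11b2* held 306, 179, 243, 250 and 486 CPM in OM LS, 208, 198, 244, 240 and 166 CPM in OM HS14 and 316, 254, 250, 224 and 214 CPM in OM HS21. *Klhl3* held 6.44, 4.36, 5.47, 5.71 and 19.7 CPM in OM HS14 and 9.35, 6.51, 3.59, 3.41 and 4.47 CPM in OM HS21, and *Nr3c2* 18.6, 14.7, 16.9, 20.9 and 61.3 CPM and 39.1, 29.3, 21.8, 12.9 and 14.5 CPM. The highest values at HS14 for both were those of replicate 10, the shallow library, and the groups overlapped. *Wnk1* held 193, 128, 133, 234 and 430 CPM at HS14 and 220, 188, 146, 181 and 167 CPM at HS21, within the range of OM LS. *Stk39* held 97.1, 97.7, 169, 149 and 172 CPM at HS14 and 123, 102, 92.2, 91.3 and 74.8 CPM at HS21, and *Sgk1* had its highest OM levels, 249 and 228 CPM, in replicates 8 and 15. In the OM at HS21 the 95% confidence interval of the log2 ratio was -0.61 to 0.53 for *Stk39*, -0.74 to 0.32 for *Hsd11b2* and -0.92 to 0.54 for *Nr3c2*. Each of these intervals spans both a rise and a fall. The narrowest intervals were those of *Cul3*, from -0.19 to 0.11, and *Oxsr1*, from -0.19 to 0.16.

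Whether the response differed between the tissues was tested as an interaction of tissue and diet. At HS21 edgeR called 0 of the 10 genes, 5 had an unadjusted *P* under 0.05, DESeq2 called 2, and edgeR called 0.665% of the 15194 genes tested. The change in the OM minus that in the Cx was -1.38 ± 0.359 for *Klhl3* (adjusted *P* = 0.0821), -1.02 ± 0.298 for *Hsd11b2* (adjusted *P* = 0.113), -1.10 ± 0.363 for *Wnk1* (adjusted *P* = 0.158) and -0.99 ± 0.377 for *Nr3c2* (adjusted *P* = 0.217). With a replicate block that pairs equal numbers of the tissues *Klhl3* was called at -1.40 (adjusted *P* = 0.0494). Without OM LS replicate 2, the library with cortical markers, the number of all genes called rose from 101 to 1275, and 3 of the 10 genes were called, *Stk39* at -0.92 (adjusted *P* = 0.0114), *Hsd11b2* at -1.13 (adjusted *P* = 0.0174) and *Klhl3* at -1.18 (adjusted *P* = 0.0434). Without OM HS21 replicate 11 *Klhl3* was called at -1.67 (adjusted *P* = 0.0197). At HS14 edgeR called 0 of the 10 and 0% of the 15091 genes tested, DESeq2 called 0, and 1 had an unadjusted *P* under 0.05, *Hsd11b2* at -0.75 ± 0.321.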

How the data were processed

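RNA of snap-frozen right-kidney tissue was made into poly(A)-selected, non-directional libraries. Per the methods supplement the authors used HISAT2 2.0.5 to align the reads to the Ensembl Rnor_6.0 genome and featureCounts 1.5.0-p3 to count read pairs per gene. The submitters' processing notes also name StringTie 1.3.3b. The deposited counts are raw, and every value in the text was computed from them. The deposited FPKM values, scaled by the authors per kilobase and library size, were not used. The authors' group means, a signal after division by DESeq2 size factors, and their comparisons, as log2 fold changes with p-values, were also left out. Gene length in bases is as deposited.

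Samples were grouped by tissue and diet as labelled. Each comparison was fitted on its own libraries with edgeR 4.0.16 (R 4.3.3; TMM, default low-expression filter, quasi-likelihood F test, Benjamini-Hochberg adjustment over all genes tested), and all 10 genes passed the filter in each. The interaction was fitted on 20 libraries. SEs of log2 ratios follow from the fit, and intervals are at 95%. log2 CPM carries a prior count of 2. Alternatives were DESeq2 1.42.0, its size factors in edgeR, total-count scaling, no filter, a fit of the 3 diets together, a replicate block between tissues and leaving out each library. The fit was tested on simulated counts. Each diet group is described as 5 kidneys divided into Cx and OM. As no source ties the numbers of the tissues to each other, Cx and OM libraries entered the fits as independent. The fits across tissues thus leave out that both tissues of a group came from the same kidneys. The replicate block was the only fit that paired them, by number.

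The 10 genes and the other gene lists were chosen with earlier results of these data known. From the other lists, the text names up to 4 genes called in Cx HS21 with the smallest *P*, the 2 most abundant in some lists, and a few genes named whatever their values. Of the listed genes 2, *Ier2* and *Hsd11b3*, were not analysed here, and where a symbol had several gene identifiers (*Tsc22d3*, *Nr3c1*) the one with the most counts was taken for levels and fits. The correlation rankings instead left out symbols shared by several of the genes to be ranked, and *Tsc22d3* is not among the ranked genes. Some genes of these lists enter the counts and are not reported here by name. Promoter sequences are those of RefSeq for GRCr8, a later build than that of the counts, and no coordinate was carried between builds.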

Additional observations from a re-analysis of the deposited data

Results flagged for a closer look

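The highest library of a group lay far from the other 4 in 7 of the 60 groups of 5 libraries tested (10 genes in 6 groups), by Dixon's ratio of its gap to the range. For either end of a group chance gives about 1 in 20, if the groups are independent. The groups here are not independent, since the 10 genes were read in the same 30 libraries. In all 7 the library far from the others was replicate 10. In Cx HS14 replicate 10 *Wnk1* stood at 1540.0 CPM (next 1030.0, ratio 0.718), *Stk39* at 106 CPM (next 59.6, ratio 0.746), *Klhl3* at 52.8 CPM (next 28.5, ratio 0.874) and *Hsd11b2* at 602 CPM (next 365, ratio 0.754). The summed distal convoluted tubule markers of this library were 3025 CPM against 1491 to 1778 in the other 4, its intercalated cell markers 2009 CPM against 882.9 to 1137, its thick ascending limb markers 3022 CPM against 1660.0 to 1917 and its proximal tubule markers 24600 CPM against 31100 to 33820. Their part in these levels was not tested.

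In OM HS14 replicate 10, the shallowest library and the one listed in the methods supplement with the smallest exonic share, *Klhl3* stood at 19.7 CPM (next 6.44, ratio 0.864), *Cul3* at 139 CPM (next 108, ratio 0.854) and *Nr3c2* at 61.3 CPM (next 20.9, ratio 0.867). Its distal convoluted tubule markers, at 124.2 CPM against 71.78 to 134.2, and proximal tubule markers, at 5165 CPM against 1983 to 7024, lay within the range of the others, and its leukocyte markers were lower, at 784.9 CPM against 1397 to 2364.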

How the results depend on the processing

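Of the 6 genes raised in Cx HS21 over LS, each kept its direction and its call under every alternative run, and the number of the 10 genes called stayed at 6 to 7 with each library left out. Total-count scaling made 1 gene non-overlapping in Cx HS14. With TMM 5.27% of the 14181 genes tested did not overlap there, and the share with total counts was not computed. From HS14 to HS21 in the Cx, 1 of the 10 genes was called, 0 without the filter, 3 by DESeq2, 4 in the fit of the 3 diets and 0 to 6 with each library left out. Of all genes 2330, 1862, 3296 and 3405 were called in the same fits, in that order. With each library left out the number was 1029 to 3524. For the interaction at HS21 0 of the 10 genes were called, 2 by DESeq2 (*Klhl3* at -1.37 and *Hsd11b2* at -1.0035) and 0 to 3 with each library left out. Of all genes 101 were called there, 538 by DESeq2 and 42 to 1275 with each library left out.

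Directions turned only for genes that were not called. With total counts *Nedd4l* in Cx HS21 was at 0.0673, *Oxsr1* in OM HS21 at 0.0031, *Oxsr1* and *Nedd4l* from Cx HS14 to HS21 at 0.0318 and 0.0324, and OM over Cx *Wnk4* at 0.12, *Oxsr1* at 0.115, *Cul3* at 0.13 and *Hsd11b2* at 0.1254. *Sgk1* in OM HS21, at -0.0012, was at 0.0062 with DESeq2 size factors, 0.0023 without the filter, 0.0076 by DESeq2 and 0.0046 in the fit of the 3 diets. With each library left out *Nedd4l* in Cx HS14 ran from -0.0119 to 0.0629, in Cx HS21 *Oxsr1* from -0.0015 to 0.05 and *Sgk1* from -0.0601 to 0.69, in OM HS21 *Stk39* from -0.22 to 0.11, *Oxsr1* from -0.0612 to 0.0239, *Sgk1* from -0.40 to 0.23 and *Hsd11b2* from -0.35 to 0.0364, *Sgk1* from Cx HS14 to HS21 from -0.33 to 0.41, and in the interaction at HS21 *Oxsr1* from -0.0782 to 0.0038 and *Sgk1* from -0.86 to 0.0665. The cause was not tested.

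Over all genes, DESeq2 called 914 in Cx HS14, 110 in OM HS14, 721 in OM HS21 and 538 in the interaction at HS21, where edgeR called 330, 1, 112 and 101. An interaction at HS14 without the 2 OM libraries that stood apart, added after the data were seen, also called 0 of the 10.

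Libraries of the 2 tissues with equal numbers were not taken as pairs. The deviations of 15 same-numbered libraries correlated at -0.071 to 0.439 (median 0.115), 10 of 15 above 0.1. Of the 15 Cx libraries 13 correlated best with their own number among the 5 OM libraries of their diet. With a replicate block 6 genes in place of 5 differed between the tissues on LS, *Sgk1* at -0.74 (adjusted *P* = 0.0460) being added, and 1 in place of 0 in the interaction at HS21, *Klhl3* at -1.40 (adjusted *P* = 0.0494). No 2 libraries of a group were copies, the most alike differing by 7.29 times the counting noise.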

Other observations

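The spread of *Sgk1* was shared by Cx and OM libraries of equal number. After the mean of each tissue and diet was removed, its log2 CPM in the Cx correlated with that in the OM over the 15 numbers with Pearson's r of 0.789 (permutation *P* = 0.00048, adjusted over the 10 genes 0.0048) and Spearman's rho of 0.793 (permutation *P* = 0.00076, adjusted 0.0076), two-sided with 100000 resamples. The resampling shuffled all 15 numbers across the diets, for this gene and for those below. These *P* values therefore assume that the deviations are exchangeable between diets, which was not tested, and the spread of *Sgk1* differed between diets. Without the 2 numbers farthest from the median in the Cx, r was 0.698. This r lay above that of 98.8% of 13407 protein-coding genes, whose median was 0.112. *Sgk1* was high in both tissues in number 15, at 562 CPM in the Cx and 228 CPM in the OM, and in number 8, at 292 and 249 CPM, and low in both in number 12, at 90.5 and 62.7 CPM, and number 7, at 109 and 52.3 CPM. The relation was not computed within diets, and the shuffles did not account for the group means removed beforehand.

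*Klhl3* and *Nr3c2* also varied together across the tissues, with r of 0.753 (permutation *P* = 0.0029, adjusted 0.0101) and rho of 0.714 (permutation *P* = 0.00364, adjusted 0.0182) for *Klhl3*, and r of 0.705 (permutation *P* = 0.00304, adjusted 0.0101) and rho of 0.589 (permutation *P* = 0.0229, adjusted 0.0458) for *Nr3c2*. Without the 2 farthest numbers r was 0.523 and 0.495. In both tissues number 10 was the highest of HS14 for both genes. It held 52.8 CPM in the Cx and 19.7 CPM in the OM for *Klhl3*, and 26.4 and 61.3 CPM for *Nr3c2*. The OM library of number 10 was the shallowest of all, and its part in these correlations was not tested. *Wnk4* and *Cul3* had correlations of the opposite sign, r of -0.476 and -0.516, with adjusted permutation *P* of 0.149 and 0.111 for r and 0.0406 for both by rho. The other 5 genes had r of -0.271 to 0.406, with adjusted permutation *P* of at least 0.213. No source says whether equal numbers are the same kidney.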
